A study of Rattus norvegicus with 138 samples.

Results

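RNA-Seq of the uninjured tibialis anterior (TA) muscle, taken from the leg opposite a volumetric muscle loss (VML) injury, was compared between 3 days post injury (DPI) and the late time points of 14 and 28 DPI. The members were chosen by their labels (muscle without VML, rats that did not run, either repair arm) and by a minimum of 7000 gene symbols above 1 TPM in the library (a share of all transcripts on a fixed scale), and no gene was used to choose them. This gave 4 muscles at 3 DPI and 8 late muscles, 12 of the 114 muscles in the series that had a group and a library above the minimum. Each of the 12 muscles came from a different male Lewis rat and was 1 library.

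All 12 rats had a punch defect made in the middle of the TA of the other leg. In the arm labelled NoRepair the defect was not filled, and in the arm labelled MMG it received a minced muscle graft (autologous muscle cut into fragments and packed into the wound). At each of 3, 14 and 28 DPI there were 2 uninjured muscles per arm. The uninjured TA had itself received no operation. The study states that all rats received the analgesic buprenorphine before surgery. Rats without VML were not analysed here after day 0. Injury, anaesthesia, analgesic, surgery and changed use of the leg therefore cannot be told apart. Time after injury also moves with the age of the rat. Values are also given for 10 uninjured muscles at 7 DPI, for the same leg of rats labelled Run (4 muscles each at 3, 7 and 14 DPI), and for 4 control muscles, both TA of each of 2 rats labelled Sham at day 0, which the study describes as not operated on. The control rats belong to another numbered series than the operated rats, so that cohort and operation cannot be told apart.

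The TA of the rat is a fast muscle that lifts the foot, and most of its mRNA encodes contractile proteins and glycolytic enzymes. Skeletal muscle also answers signals that reach it through the blood. Glucocorticoids and inflammatory cytokines raise ubiquitin ligases that mark muscle proteins for breakdown, interferons switch on antiviral genes, and interleukin-6 and zinc raise metallothioneins. A muscle far from a wound can respond through such signals, through circulating leukocytes, or through a change in load.

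The muscles at 3 DPI differed from the late muscles in the make-up of their mRNA. Between 9320 and 9736 symbols were above 1 TPM in the 4 muscles at 3 DPI, against 8912 to 9110 in the 8 late muscles, a description, since libraries were chosen by a minimum of this number. The 50 genes with the highest mean in the control muscles took 42.8% to 48.2% of the TPM at 3 DPI and 54.1% to 57.1% in late muscle (exact two-sided permutation test, p = 0.00404, the smallest possible with these numbers). One of the 4 control muscles, described with the comparison against control, stood apart in this share, and with the 50 genes chosen from the other 3 the shares were 42.8% to 48.4% and 54.1% to 57.1%. Since TPM adds up to the same total in every library, a smaller share for these genes leaves a larger share for the rest. The median of all 9669 tested genes was 0.39 higher at 3 DPI on the log2(TPM + 1) scale. Counts of called genes are therefore given on TPM as deposited and, as rescaled values, on TPM divided by median-of-ratios size factors, which were 1.20 to 1.41 at 3 DPI and 0.872 to 1.01 in late muscle and brought the median to 0.02.

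A gene was called when its Benjamini-Hochberg adjusted p in limma was under 0.05 and its log2 difference beyond 1 in either direction. On TPM as deposited, 232 genes were called higher at 3 DPI (2.4% of 9669) and 6 lower (0.0621%). On rescaled values 48 were called higher (0.496%) and 45 lower (0.465%). With single muscles left out the rescaled counts ranged from 33 to 85 higher and from 33 to 70 lower, with the extremes set by the first and second non-repaired muscle at 3 DPI. On TPM as deposited 54.1% of all tested genes were higher at 3 DPI without overlap between the 4 and the 8 muscles and 1.78% lower, so that a lack of overlap is a description of a gene's values. A gene was tested when its mean was above 1 TPM in at least one group, and 17 of the 232 and 6 of the 48 passed this filter through the muscles at 3 DPI alone. All 48 and all 6 were also called in the same direction on the other scale. By the adjusted p alone 1355 genes were higher (14%) and 1600 lower (16.5%) on rescaled values. All fold changes below are log2 differences of TPM + 1 at 3 DPI minus the mean of 14 and 28 DPI, and rescaled differences follow them. Between 14 and 28 DPI, 2 genes were called higher at 14 DPI and 7 lower (0.0207% and 0.0724%), or 8 and 5 rescaled (0.0827% and 0.0517%), and the late days were pooled. Against 14 DPI alone 364 genes were called higher at 3 DPI and 18 lower (3.76% and 0.186%), or 57 and 78 rescaled (0.59% and 0.807%). Against 28 DPI alone 197 were called higher and 4 lower (2.04% and 0.0414%), or 50 and 27 rescaled (0.517% and 0.279%).

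One muscle at 3 DPI, the second from a non-repaired rat, lay closest to the late muscles, with the fewest symbols above 1 TPM (9320), the largest share for the 50 abundant genes and the smallest size factor. Without it 419 genes were called higher and 10 lower. Without the first non-repaired muscle 148 were called higher and 6 lower. Values at 3 DPI are listed below as the first and second non-repaired muscle, then the first and second graft muscle. Genes of fast skeletal muscle were abundant in these muscles, which does not by itself identify the TA or the uninjured leg. The skeletal actin gene Acta1 lay at 37288, 44602, 42001 and 38453 TPM at 3 DPI and at 47116 to 52881 in late muscle, and Myh4, the heavy chain of the fastest fibres, at 21401, 22089.5, 20035 and 22994 and 17152 to 24008.

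Some genes of muscle protein breakdown were called higher on TPM as deposited. Fbxo32 had the largest difference among them and was the only one of them called on rescaled values. Fbxo32 (atrogin-1), a muscle ubiquitin ligase raised in atrophy, was at 409.8, 214, 453 and 452 TPM at 3 DPI, whereas late muscle ranged from 51.6 to 141.3 with a median of 116. All 4 muscles lay above all 8, and Fbxo32 was higher by 1.90 ± 0.24 (SE, limma adjusted p = 7.72e-07), or 1.46 (adjusted p = 4.71e-06) on rescaled values. Trim63 (MuRF1), the other classical atrophy ligase, was at 326, 326, 448 and 332 TPM against 124 to 201 with a median of 177. The groups did not overlap, and its difference was 1.06 (adjusted p = 6.18e-06) as deposited and 0.62 (adjusted p = 5.75e-05) rescaled, past the adjusted p but not the fold. Fbxo31, another F-box ligase subunit, was at 334, 206, 287 and 228 TPM against 75.7 to 136.1 with a median of 113, without overlap. Sqstm1 (p62), the receptor that brings ubiquitylated cargo to autophagosomes, was at 938, 553, 818 and 754 TPM against 301 to 437 with a median of 333, also without overlap. The lysosomal protease gene Ctsl was at 249, 116, 214 and 208 TPM, and its lowest muscle at 3 DPI fell within the late range of 70.4 to 124. Of 19 tested genes of atrophy and autophagy 6 were called higher and none lower, among them also Gadd45a, a stress-induced gene (1.01), with a median of 0.62 against 0.39 for all genes. On rescaled values 1 was called, 10 were higher and 1 lower by the adjusted p alone, and the median was 0.19 against 0.02. Leaving out single muscles moved the 6 to between 4 and 7, the lowest without the first graft muscle at 3 DPI, without which Trim63 passed the adjusted p but not the fold.

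**Figure D1:**
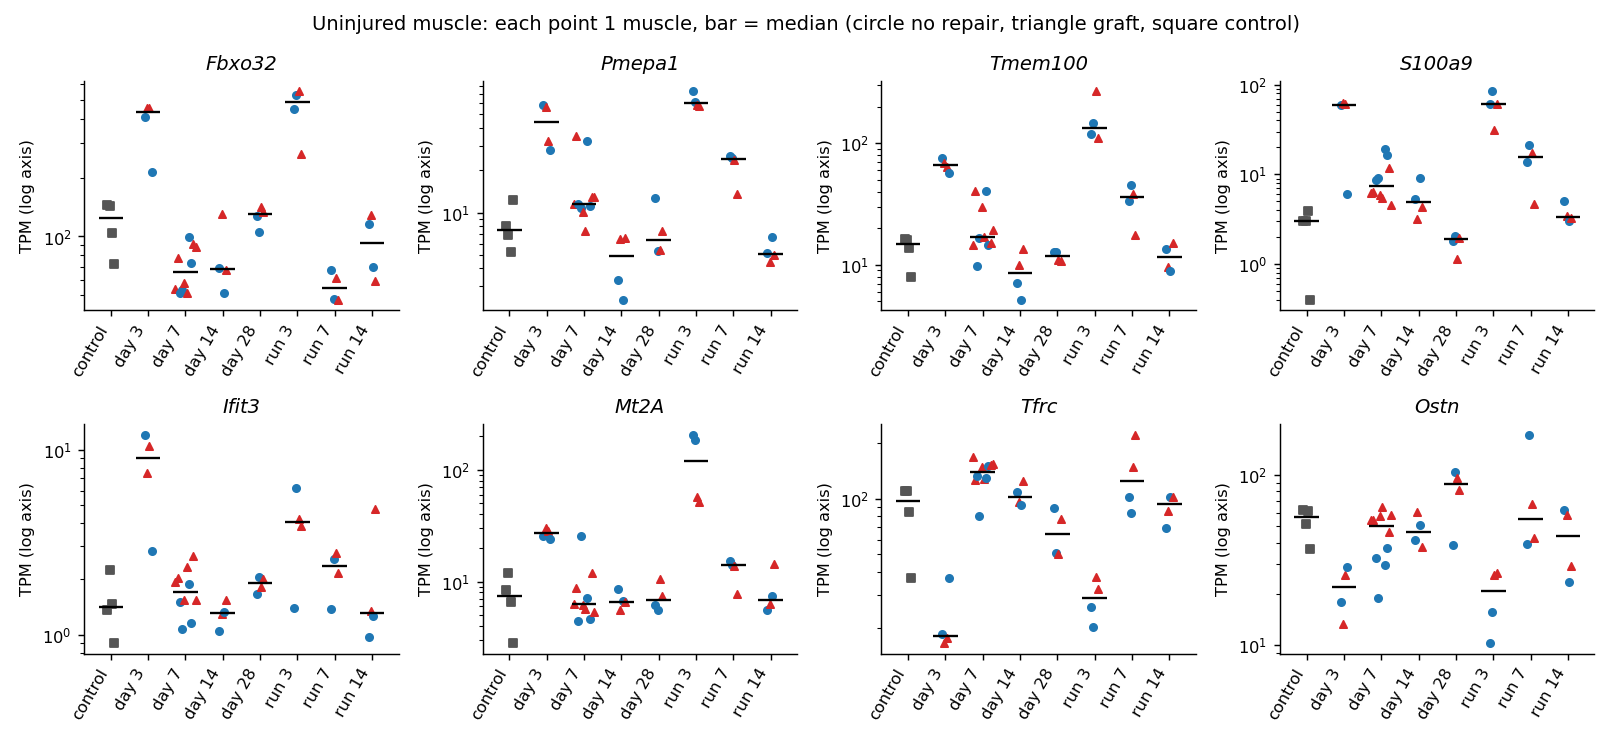
TPM on a log axis for 8 genes in uninjured TA, each point 1 muscle and each bar a group median; columns are unoperated control, days 3, 7, 14 and 28 after injury, and days 3, 7 and 14 in running rats. Fbxo32, Pmepa1, Tmem100, S100a9, Ifit3 and Mt2A are high at day 3 and Tfrc and Ostn low, with the second non-repaired muscle (the lower circle at day 3 in S100a9 and Ifit3) nearest the late muscles.

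Some genes of fibre stress were called as well. Sln (sarcolipin), an inhibitor of the calcium pump of the sarcoplasmic reticulum, was at 72.9, 128.2, 106.9 and 96.6 TPM at 3 DPI against 16.1 to 53.8 with a median of 22.7. No late muscle reached the muscles at 3 DPI, and Sln rose by 1.96 (adjusted p = 6.76e-07) as deposited and 1.52 (adjusted p = 7.73e-05) rescaled. Hdac4, a deacetylase raised by denervation, was at 14.8, 13, 13.4 and 15 TPM against 4.32 to 9.22 with a median of 4.93, and the stretch-induced ankyrin repeat gene Ankrd1 at 21, 11.9, 14.6 and 15.4 against 4.22 to 8.99 with a median of 5.95. Neither overlapped, and both were past the adjusted p but not the fold on rescaled values (0.77 and 0.85). Ankrd2 was at 24.1, 45.8, 25.5 and 24.8 TPM against 7.16 to 27.5 with a median of 12.5, and 1 late muscle lay above 3 of the 4 at 3 DPI. The acetylcholine receptor subunit Chrna1, a defining denervation gene, was not called although the groups did not overlap, at 6.92, 8.01, 7.14 and 8.94 TPM against 3.83 to 6.51 with a median of 4.96 (adjusted p = 0.065). In total, 6 of 16 tested genes of denervation and fibre stress were called higher and 1 lower, with a median of 0.61, or 1 and 1 with a median of 0.23 on rescaled values. Of all genes 2.4% were called higher and 0.0621% lower, or 0.496% and 0.465% rescaled, with medians of 0.39 and 0.02. Without the first non-repaired muscle at 14 DPI 3 were called higher and without the second non-repaired muscle at 3 DPI 4.

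Among myogenic genes, embryonic myosin Myh3 was at 6.8, 10, 17.2 and 7.62 TPM at 3 DPI against 1.01 to 2.65 with a median of 1.57. Each muscle at 3 DPI lay above each late muscle (log2 difference 2.06 ± 0.21 (SE), adjusted p = 3.93e-08), and the rescaled difference was 1.68 (adjusted p = 3.28e-07). Fgfr4, a growth factor receptor of myogenic cells, was at 16, 14.8, 16.2 and 19.2 TPM against 4.56 to 6.27 with a median of 5.21, without overlap (1.47, or 1.06 (adjusted p = 1.24e-08) rescaled). Myog (myogenin), the differentiation factor, was at 18.6, 19.4, 19.6 and 24.3 TPM against 6.36 to 14.8 with a median of 9.28. Mstn (myostatin), a secreted inhibitor of muscle growth, was at 41, 29.6, 38.1 and 54 TPM against 12.8 to 24.5 with a median of 17.4. Both were free of overlap and called on TPM as deposited (1.02 and 1.14) but were below the fold when rescaled (0.61 and 0.71). Of 18 tested myogenic and satellite cell genes 3 were called higher as deposited and 2 rescaled, with medians of 0.46 and 0.08. Of 20 genes of insulin-like growth factor, myostatin and activin signalling 2 were called higher as deposited, where 2.4% of all genes were, and between 0 and 3 with single muscles left out. Rescaled, none of them was called higher and 1 lower, the growth factor Igf2 (-1.003, just past the fold), and in some fits without 1 muscle none. Of 21 tested glucocorticoid-induced genes 2 were called higher as deposited, Ddit4 (15.8, 74.4, 48.1 and 23.2 TPM against 5.62 to 37.5 with a median of 13.9) and Arrdc3 (11.7, 37.3, 26.3 and 14.8 against 6.42 to 12.4 with a median of 7.95), and both overlapped late muscle. Without the second non-repaired muscle at 3 DPI no gene of that list was called, and other single muscles moved the count between 1 and 4. On rescaled values none of the 21 was called, 2 were higher and 4 lower by the adjusted p alone, and the median was 0.08, after 0.52 as deposited. With single muscles left out the rescaled values gave 2 called genes without the first non-repaired muscle at 3 DPI and 0 in the other fits, and 0 to 3 higher and 2 to 4 lower by the adjusted p alone.

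The 12 highest non-overlapping genes included several of other kinds. Pmepa1, a target and feedback inhibitor of transforming growth factor beta signalling, was at 58, 28.1, 56.3 and 32.2 TPM at 3 DPI and 2.39 to 12.8 with a median of 5.95 in late muscle (log2 difference 2.68 ± 0.34 (SE), adjusted p = 7.72e-07), or 2.25 (adjusted p = 2.38e-05) rescaled. Tmem100, a membrane protein of endothelium downstream of bone morphogenetic protein signalling, was at 74.9, 56.6, 69.2 and 63.4 TPM against 5.1 to 13.4 with a median of 10.8 (2.61, or 2.18 (adjusted p = 5.21e-07) rescaled). These were the largest differences among the called genes whose groups did not overlap. Thrsp, a regulator of lipid synthesis, was at 109, 28.4, 87.4 and 39 TPM against 4.79 to 18.1 with a median of 10.4, with the second non-repaired muscle the lowest at 3 DPI but still above all late muscles. Map1a, a microtubule-associated protein, was at 27.5, 14.4, 20.5 and 13.7 TPM against 2.16 to 4.65 with a median of 3.56. Pnpla7, a lysophospholipase, was at 149, 67, 135.99 and 130.2 TPM against 19.3 to 51 with a median of 30.8. Mustn1, a small nuclear protein of muscle and skeleton, was at 356, 198, 176 and 136.9 TPM against 44.6 to 98.6 with a median of 57.5. Rescaled differences of these 4 were 1.98, 1.75, 1.41 and 1.32, all called.

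Neutrophil genes were high in 3 of the 4 muscles at 3 DPI. S100a9, which with S100a8 forms calprotectin, the most abundant protein of the neutrophil cytosol, was at 59.2, 6.06, 62.8 and 60.2 TPM against 1.14 to 9.18 with a median of 2.63. S100a8 was at 39.5, 2.17, 37.6 and 40.6 TPM against 0.4 to 6.21 with a median of 1.8. In both genes the second non-repaired muscle lay within the late range and the other 3 lay far above it. The differences were 3.13 and 2.84 (limma adjusted p = 5.55e-06 and 8.19e-05), and 2.71 (adjusted p = 5.10e-05) and 2.44 (adjusted p = 7.31e-04) on rescaled values. Csf3r, the receptor of granulocyte colony-stimulating factor, was lower in level, at 2.07, 0.24, 2.74 and 2.06 TPM, with the same muscle inside the late range of 0.09 to 0.52. Of 16 listed neutrophil markers 15 were in the table, 6 were tested and 4 were called higher, 3 of them on rescaled values too, and 2 of the 4 passed the filter through the muscles at 3 DPI alone, so that the count over tested markers leans towards higher values. With single muscles left out 3 to 5 were called as deposited and 2 to 4 rescaled. The granule genes Mpo, Elane and Ltf, made in marrow precursors, stayed at or below 0.12 TPM in all 12 muscles, and Cxcr1 was listed at 0 in each. The summed level of the list was 11.4 to 111 TPM at 3 DPI and 4.0 to 18.7 in late muscle. In whole muscle a larger number of cells of a type cannot be told apart from more RNA per cell.

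Haemoglobin RNA, a measure of blood in the sample, was also lowest at 3 DPI in the second non-repaired muscle: Hbb was at 3854, 533, 2559 and 4188 TPM, against 595 to 7402 with a median of 1379 in late muscle (log2 difference 0.36, adjusted p = 0.63). The part of blood content in the neutrophil values was not tested. Of 8 tested blood cell markers none was called by limma, and the list summed to 1267 to 9665 TPM at 3 DPI and 1541 to 18103 in late muscle. Of the T, NK and B cell markers, 2 of 17 in the table reached the level needed for testing and none was called. Keratin genes of skin, Krt5 and Krt14, did not exceed 0.21 TPM in any of the 12 muscles.

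Several macrophage and complement genes were higher, with the second non-repaired muscle again the lowest. Lyz2 (lysozyme) was at 135.6, 42.2, 90.6 and 123 TPM at 3 DPI against 27.5 to 40.7 with a median of 33, without overlap (1.39, or 0.95 (adjusted p = 5.85e-04) rescaled). Gpnmb, a glycoprotein of lipid-laden and phagocytic macrophages, was at 42.8, 5.99, 25.6 and 22.9 TPM against 3.89 to 6.07 with a median of 4.54, and its lowest muscle at 3 DPI lay inside the late range. C1qb, a subunit of complement C1q made by tissue macrophages, was at 39.7, 15.6, 30.6 and 33.8 TPM against 10.9 to 14.9 with a median of 12.7, and Fcer1g, the common gamma chain of Fc receptors, at 32.2, 13.5, 24.4 and 29.7 against 6.24 to 12.5 with a median of 10.9, both without overlap. C4b, a complement component of the classical pathway, was at 53.6, 14.5, 36.5 and 37.8 TPM against 6.03 to 18.1 with a median of 12.5, with the second non-repaired muscle inside the late range. Its near-identical copy C4a was called too, and reads of the pair could have been split between them. Of 18 tested monocyte and macrophage markers 6 were called higher and of 19 complement genes 7, with medians of 0.79 and 0.86. Of all genes 2.4% were called higher, with a median of 0.39. On rescaled values 1 and 0 were called, where 0.496% of all genes were, with medians of 0.41 and 0.45 against 0.02. By the adjusted p alone 10 of each list were then higher, where 14% of all genes were, and 1 complement gene was lower. Without the first non-repaired muscle at 3 DPI 2 of each list were called, without the second non-repaired muscle 8 and 11, and without the second graft muscle 4 of the complement genes. Rescaled, leaving out single muscles gave 0 to 2 called macrophage markers and 0 to 4 called complement genes, and 7 to 15 and 6 to 15 higher by the adjusted p alone, in each case lowest without the first and highest without the second non-repaired muscle at 3 DPI. Of the acute phase and interleukin-6 list of 21 tested genes 1 was called, Serpina3n, a protease inhibitor, at 7.56, 1.18, 2.9 and 4.95 TPM against 0.4 to 0.91 with a median of 0.635 (1.48, or 1.16 (adjusted p = 6.73e-05) rescaled). With single muscles left out 1 to 3 genes of that list were called as deposited and 0 or 1 rescaled, none without the first non-repaired muscle at 3 DPI. Of 16 chemokines Ccl21 (59.5, 18.7, 39.4 and 72.5 TPM against 10.1 to 18 with a median of 15.3) and Cxcl13 (3.87, 0.46, 2.66 and 5.6 against 0.06 to 1.14 with a median of 0.39), both lymphocyte attractants, were called on both scales, and Cxcl13 was tested through the muscles at 3 DPI alone. With single muscles left out 2 to 4 chemokines were called as deposited and 0 to 2 rescaled, none without the first non-repaired or the second graft muscle at 3 DPI.

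Interferon-stimulated genes were higher at 3 DPI, most of all in the same 3 muscles. Such genes are switched on by transcription factors that bind the interferon-stimulated response element, among them the interferon regulatory factors. Of the 9 called members of the list, 6 had a RefSeq promoter window (GRCr8), and 4 of those 6 held the letters GAAA, any 2 bases and GAAA again, searched on both strands in the 250 bases before the start. The 150 bases before the start of these 4 are shown with each match in capitals. Both matches of Oas1a overlap each other.
Ifit3 (chr1:241527176-241527325, plus strand): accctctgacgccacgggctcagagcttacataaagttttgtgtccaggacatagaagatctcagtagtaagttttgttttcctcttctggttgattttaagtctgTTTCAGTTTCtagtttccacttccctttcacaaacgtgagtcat
Irf7 (chr1:205800024-205800173, minus strand): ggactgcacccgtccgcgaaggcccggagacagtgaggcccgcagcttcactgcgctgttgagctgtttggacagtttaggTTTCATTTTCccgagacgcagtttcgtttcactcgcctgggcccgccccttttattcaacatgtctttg
Oas1a (chr12:41330316-41330465, plus strand): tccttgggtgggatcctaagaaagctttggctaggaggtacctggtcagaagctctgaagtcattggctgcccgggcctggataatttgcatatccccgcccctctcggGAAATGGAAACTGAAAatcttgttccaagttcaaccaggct
Ifi44 (chr2:243303841-243303990, minus strand): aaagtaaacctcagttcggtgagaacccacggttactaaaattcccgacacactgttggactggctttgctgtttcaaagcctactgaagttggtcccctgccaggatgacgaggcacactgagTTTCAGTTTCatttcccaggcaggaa
Of all 33469 windows, 3.41% held a match in the same 250 bases. A match describes these letters and is not a binding site.

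Ifit3, an antiviral protein that binds viral RNA complexes, was at 12.1, 2.82, 7.49 and 10.5 TPM at 3 DPI against 1.04 to 2.05 with a median of 1.59. Isg15, a ubiquitin-like modifier, was at 22.9, 5.78, 12.5 and 17.8 TPM against 2.1 to 4.64 with a median of 3.71, and Irf7, the regulatory factor that amplifies the interferon response, at 22.6, 5.78, 11.5 and 24.7 against 2.73 to 5.36 with a median of 3.94. None of the 3 overlapped, and the second non-repaired muscle lay just above the late muscles while the other 3 were further above. The antiviral GTPase gene Mx1 was at 6.98, 1.25, 3.27 and 6.41 TPM against 0.47 to 1.19 with a median of 0.775, and Rtp4 at 6.48, 2.62, 3.27 and 6.41 against 0.91 to 1.72 with a median of 1.36, also without overlap. Differences were 1.70 for Ifit3, 1.67 for Isg15, 1.60 for Irf7, 1.45 for Mx1 and 1.24 for Rtp4, with limma adjusted p from 3.87e-07 to 1.05e-05. On rescaled values they were 1.33, 1.27, 1.20, 1.13 and 0.90, the last past the adjusted p but not the fold. Slfn4, a schlafen gene of myeloid cells that interferon raises, was at 16.9, 4.34, 12.5 and 18.7 TPM against 1.4 to 2.18 with a median of 1.92 (2.13, or 1.74 (adjusted p = 5.13e-06) rescaled). Of 25 tested interferon genes 9 were called higher, 2 of them tested through the muscles at 3 DPI alone, and 12 were higher without overlap, which is no larger a share than the 54.1% of all genes. The median was 0.83 against 0.39 for all genes, of which 2.4% were called higher. On rescaled values 4 were called, where 0.496% of all genes were, and 1 of the 4, Mx1, was tested through the muscles at 3 DPI alone. By the adjusted p alone 16 were then higher and none lower, where 14% and 16.5% of all genes were. The rescaled median was 0.48 against 0.02. Leaving out single muscles gave between 7 and 13 called genes, and between 2 and 5 on rescaled values, the 2 without the second graft muscle. The 16 higher by the adjusted p alone on rescaled values became 9 without the first non-repaired or without the second graft muscle at 3 DPI, and 21 without the second non-repaired muscle.

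Of 3 tested metallothionein genes Mt1 and Mt2A rose, the third, Mt3, differed by 0.35 (adjusted p = 0.1), and the transferrin receptor fell. Mt1 and Mt2A encode small proteins that bind zinc and copper and are induced by metals, glucocorticoids and cytokines. The metal response element core, TGCACNC on either strand, occurred 3 times in the 250 bases before the start of Mt1 and 2 times before Mt2A (RefSeq, GRCr8), against at least 1 match in 10.3% of all 33469 windows. The 150 bases that hold these matches are shown with the matches in capitals.
Mt1 (chr19:10833022-10833171, minus strand, 196 to 47 bases before the start): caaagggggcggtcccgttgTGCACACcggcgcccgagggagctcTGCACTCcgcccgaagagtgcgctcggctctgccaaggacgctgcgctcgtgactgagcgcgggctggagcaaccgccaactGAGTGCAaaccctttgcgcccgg
Mt2A (chr19:10838799-10838948, minus strand, 240 to 91 bases before the start): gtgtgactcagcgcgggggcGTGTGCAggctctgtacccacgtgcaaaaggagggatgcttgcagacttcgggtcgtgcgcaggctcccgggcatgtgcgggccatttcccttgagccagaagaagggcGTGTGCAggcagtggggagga
Mt2A was at 25.6, 23.9, 30.1 and 28.5 TPM at 3 DPI against 5.62 to 10.6 with a median of 6.63, and Mt1 at 15.9, 11.9, 18.6 and 12 against 2.87 to 6.9 with a median of 4.42. For both genes the 4 muscles at 3 DPI were close to one another and clear of all late muscles. The differences were 1.80 and 1.49 (adjusted p = 5.59e-05 and 2.10e-04), and 1.38 (adjusted p = 0.00276) and 1.08 (adjusted p = 0.01) rescaled. Hmox1 (heme oxygenase 1), which degrades heme, was at 10.4, 4.89, 13.7 and 10.5 TPM against 2.1 to 5.48 with a median of 3.18, with 1 muscle inside the late range (1.32, or 0.93 (adjusted p = 4.17e-04) rescaled).

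Tfrc, the transferrin receptor through which cells take up iron, fell most of all 6 lower genes. It was at 18.5, 37.2, 16.6 and 17.6 TPM at 3 DPI against 50.1 to 124 with a median of 90.7 in late muscle. All 4 muscles lay below all 8, and 3 of them within 2 TPM of each other (log2 difference -1.91 ± 0.24 (SE), adjusted p = 8.34e-07), or -2.33 (adjusted p = 8.50e-09) on rescaled values. Alas1, the rate-limiting enzyme of heme synthesis, chosen after its values were seen, was at 45.8, 76.9, 49 and 51.6 TPM against 92.7 to 121 with a median of 109. It did not overlap late muscle and was called on rescaled values alone (-1.41 (adjusted p = 1.24e-08)). Of 11 tested genes of metals and heme 3 were called higher and 1 lower, or 2 and 1 rescaled. Of all genes 2.4% were called higher and 0.0621% lower, or 0.496% and 0.465% rescaled.

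The other 5 lower genes were Ostn, Iqcg, Actc1, G0s2 and LOC500959. Ostn (musclin), a peptide hormone that muscle makes when it works, was at 17.9, 28.9, 13.3 and 25.8 TPM at 3 DPI against 37.6 to 103.3 with a median of 55.6, without overlap (-1.48, or -1.90 (adjusted p = 3.02e-06) rescaled). Iqcg was at 1.08, 2.05, 1.59 and 1.23 TPM against 4.28 to 8.56 with a median of 5.51, and LOC500959 at 54.4, 61.1, 47.6 and 49 against 95.5 to 126.03 with a median of 106.1, both without overlap. Actc1, the cardiac actin that young muscle fibres also make, was at 29.4, 26.4, 23.4 and 56.3 TPM against 50.8 to 269.9 with a median of 86, and G0s2, an inhibitor of the lipase that opens fat droplets, at 64.8, 100.3, 39.3 and 44.4 against 42.6 to 339.7 with a median of 104.8. These overlapped late muscle, where both genes varied widely. G0s2 and LOC500959 lay close to the fold of 1 and were not called in some of the fits that left out 1 muscle, and all 6 were called on rescaled values.

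Matrix and tendon genes were higher on average but varied between muscles. Col1a1, a chain of type I collagen, was at 262 and 313 TPM in the first non-repaired and second graft muscle at 3 DPI, against 15.7 to 132.7 with a median of 59.2 in late muscle. Col1a2, the other chain, was at 276, 104.05, 122 and 298 against 28.3 to 135.5 with a median of 70.9, and Col3a1 at 231, 174, 160.2 and 257 against 39.9 to 183 with a median of 100.3. The first non-repaired and the second graft muscle lay above all late muscles in these 3 genes, and the other muscles within the late range. The same split was wide in tendon genes: Kera (keratocan) was at 49.9, 5.39, 6.96 and 51.9 TPM against 1.67 to 8.58 with a median of 3.48, and Tnmd (tenomodulin) at 19.5, 2.64, 2.59 and 22.3 against 0.95 to 4.46 with a median of 2.01. Scx (scleraxis), the transcription factor of tendon cells, differed from them, at 59.9, 55.7, 54.2 and 52.2 TPM against 13.1 to 21.6 with a median of 19.1, even among muscles and without overlap (1.57, or 1.14 (adjusted p = 2.50e-04) rescaled). Postn (periostin) was at 25.8, 11.1, 15.1 and 23.1 TPM against 2.18 to 14.7 with a median of 6.82, and Cyr61 (Ccn1), a matricellular protein induced by stretch, at 17, 39.5, 21.4 and 27.1 against 5.4 to 14.6 with a median of 8.94, the latter without overlap. Of 24 fibrillar collagen and processing genes 6 were called higher, of 32 matricellular genes 5, and of 11 tendon and cartilage genes 6, with medians of 0.78, 0.77 and 1.04. Rescaled, the counts were 1, 0 and 3 and the medians 0.42, 0.36 and 0.69. Of all genes 2.4% were called higher as deposited and 0.496% rescaled, with medians of 0.39 and 0.02. Without the first non-repaired muscle at 3 DPI the counts as deposited were 3, 2 and 3, without the second 10, 14 and 9, without the first graft muscle 7, 11 and 9, and without the second graft muscle 2, 4 and 4. Of 14 fibroblast markers 3 were called higher as deposited, and of 10 adipocyte markers 2, among them Adipoq (adiponectin) at 26.6, 1.06, 3.73 and 11.8 TPM against 1.14 to 4.45 with a median of 2.42, high in the same pair of muscles. Rescaled, no gene of either list was called, with medians of 0.37 and 0.28. As deposited, neither list had a called gene without the first non-repaired muscle at 3 DPI, and without the second graft muscle 1 fibroblast and 0 adipocyte markers were called. Without the second non-repaired muscle the counts were 6 and 2 as deposited and 1 and 2 rescaled.

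**Figure D2:**
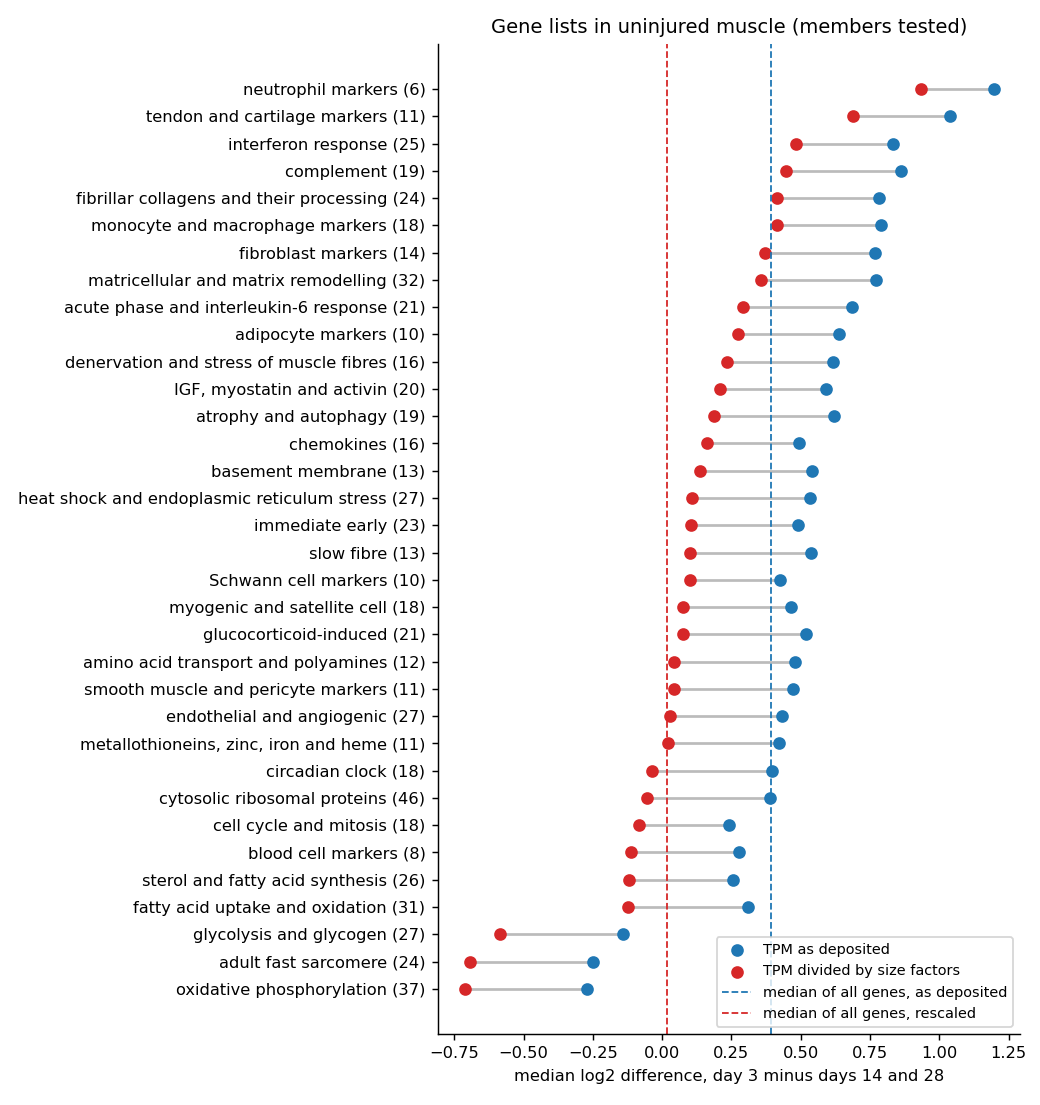
Median log2 difference (3 DPI minus 14 and 28 DPI) over the tested members of each list with at least 5, numbers in brackets, on TPM as deposited (blue) and rescaled (red), with dashed lines for all 9669 genes. Neutrophil and tendon genes lie farthest to the right of both lines, and oxidative phosphorylation, fast sarcomere and glycolysis farthest to the left. Of the 6 tested neutrophil markers 3 passed the filter through the muscles at 3 DPI alone, so that their median leans towards higher values.

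Genes of the fast fibre and its energy supply had lower medians than all genes. No gene of oxidative phosphorylation, glycolysis or the adult fast sarcomere was called on TPM as deposited, yet their medians were -0.27, -0.14 and -0.25 where that of all genes was 0.39, and by the adjusted p alone 27 of 37, 8 of 27 and 13 of 24 were lower, against 2.59% of all genes. In the same test 0, 8 and 7 of them were higher, against 65.8% of all genes, so the glycolysis list was evenly divided. On rescaled values the medians were -0.71, -0.59 and -0.69. By the adjusted p alone 36 of 37, 19 of 27 and 16 of 24 were then lower, where 16.5% of all genes were. With single muscles left out these counts stayed between 34 and 36, 16 and 19, and 13 and 16. The members named below were called on rescaled values, apart from Myh4 and Acta1.

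Mylpf, the regulatory light chain of fast myosin, was at 24777, 26343, 24589 and 25123 TPM at 3 DPI against 38595 to 56652 with a median of 44685. Pvalb (parvalbumin), the calcium buffer of the fastest fibres, was at 9915, 11500.4, 9735 and 10043 TPM against 15617 to 26256 with a median of 20289.8, and Casq1 (calsequestrin), which holds calcium in the sarcoplasmic reticulum, at 1857, 2500.4, 2055 and 1994 against 2846 to 4399 with a median of 3759.7. In each gene the 4 muscles at 3 DPI lay close together below all 8 late muscles. Their differences were -0.85, -0.97 and -0.79 as deposited and -1.30, -1.42 and -1.23 rescaled. Myh4, in contrast, had overlapping groups, with differences of 0.09 (adjusted p = 0.486) and -0.36 (adjusted p = 0.0433), and Acta1, whose groups did not overlap in TPM, of -0.30 (adjusted p = 0.0255) and -0.74 (adjusted p = 0.0168). Among glycolytic enzymes the muscle enolase Eno3 was at 5414, 6795, 6314 and 6370.1 TPM against 9984 to 12007 with a median of 10654, pyruvate kinase Pkm at 2515, 3135, 3030.3 and 2778 against 4371 to 5106 with a median of 4782, and phosphoglycerate mutase Pgam2 at 3981, 5319.9, 4314 and 4339.5 against 7117 to 8351 with a median of 7653. None of the 3 overlapped, with rescaled differences of -1.24 (adjusted p = 2.62e-07), -1.18 (adjusted p = 4.68e-06) and -1.22 (adjusted p = 3.37e-05). In the respiratory chain Ndufb8, a subunit of complex I, was at 559, 629.9, 579 and 624 TPM against 937 to 1071 with a median of 995, and Cyc1, cytochrome c1 of complex III, at 605, 704, 661 and 727 against 944 to 1099.7 with a median of 993, both without overlap (-1.19 (adjusted p = 1.46e-06) and -1.01 (adjusted p = 1.89e-07) rescaled).

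**Figure D3:**
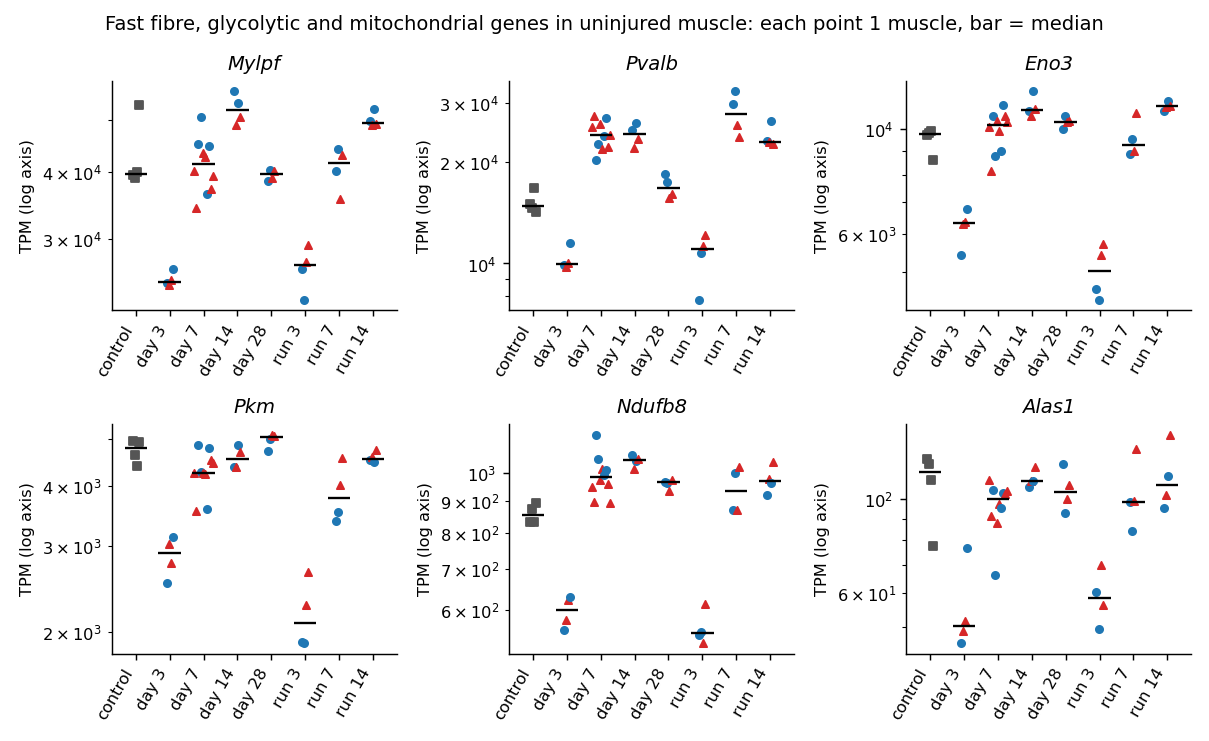
TPM on a log axis for 2 fast fibre genes (Mylpf, Pvalb), 2 glycolytic genes (Eno3, Pkm), the complex I gene Ndufb8 and the heme synthesis gene Alas1 in uninjured TA, with circles for no repair, triangles for graft, squares for control and bars for medians. The muscles at day 3, running or not, lie below the muscles at days 14 and 28 in each panel.

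Myl2, the slow ventricular light chain, was at 735, 787, 932 and 859 TPM at 3 DPI against 186 to 476 with a median of 302, without overlap (1.39, or 0.95 (adjusted p = 0.00945) rescaled). Of 13 tested slow fibre genes 2 were called higher as deposited, Myl2 and Myoz2, and Myoz2 fell below the fold in 4 of the 12 fits without 1 muscle. Rescaled, none of the 13 was called, and the median went from 0.54 to 0.10. Fatty acid uptake and oxidation (31 genes) had no gene called by limma on either scale, 3 higher and 9 lower by the adjusted p alone on rescaled values, and a median that changed sign with the scale, from 0.31 to -0.12. Cytosolic ribosomal proteins had a median of 0.39 over 46 genes, equal to that of all genes, and of -0.05 rescaled. No gene of cell cycle, endothelium, or heat shock and endoplasmic reticulum stress was called in limma on either scale, and 0, 1 and 4 of 18, 27 and 27 were higher by the adjusted p alone on rescaled values and 3, 3 and 1 lower. In each of 6 further lists 1 gene was called higher as deposited: the clock gene Per2 (1 of 18 tested, 1.02), the immediate early factor Fos (1 of 23, 1.06), the polyamine enzyme Sat1 (1 of 12 genes of amino acid transport and polyamines, 1.13), the basement membrane protein Fbln1 (1 of 13, 1.10), the Schwann cell marker Cnp (1 of 10, 1.05) and, among 11 smooth muscle and pericyte genes, Mustn1. On rescaled values Mustn1 was the one of these called. MicroRNA precursor rows, short transcripts that an mRNA library covers poorly, had 17 called higher as deposited (16.8% of those tested) and 1 rescaled, and their median was 0.67 and then 0.35.

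The comparison was repeated with the muscles at 7 DPI. Against the 10 muscles at 7 DPI, 257 genes were called higher at 3 DPI and 18 lower (2.66% and 0.186%), or 50 and 64 rescaled (0.517% and 0.662%). At 7 DPI itself 17 genes were called higher and 4 lower than in late muscle (0.176% and 0.0414%), with the same numbers rescaled. Of the 232 genes called higher at 3 DPI against late muscle, 7 were called higher at 7 DPI too, and their median difference at 7 DPI was 0.14 where that of all genes was 0.01. Fbxo32 ranged from 51.5 to 99.5 with a median of 65.6 TPM at 7 DPI, and Tfrc from 80.1 to 168 with a median of 139.8. Sln was an exception, at 50.1 to 102.8 with a median of 76.7 TPM (1.57 above late muscle, adjusted p = 3.20e-06), and Myl2 was at 521 to 809.7 with a median of 658 (1.08, adjusted p = 3.57e-05). Pmepa1 lay between, at 7.35 to 34.9 with a median of 11.5 TPM (1.15, adjusted p = 0.00426).

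The rats at 3 DPI carried numbers 10 to 17, those at 28 DPI 73 to 76 and those at 14 DPI numbers above 100, so the order of the rats moves with the day. At 7 DPI both ranges were present. The 2 muscles there from rats numbered under 100 and the 8 from higher numbers differed in no called gene in limma, with 423 of 9706 at an unadjusted p under 0.05 (4.36%). Against these 2 muscles, 225 genes were called higher at 3 DPI and 21 lower (2.32% and 0.216%), or 71 and 57 rescaled (0.732% and 0.587%). These 2 muscles were both from the graft arm, while the 8 others were 4 graft and 4 non-repaired, so that rat number and arm are not separate here.

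The fourth control muscle stood apart from the other 3. It had 7866 symbols above 1 TPM against 8760 to 8914, a share of 61.8% against 52.6% to 54.0% for the 50 genes highest in control, and a size factor of 0.596 against 0.963 to 1.04. Against the 4 unoperated control muscles, 798 genes were called higher at 3 DPI and 7 lower (8.25% and 0.0724%), or 236 and 47 rescaled (2.44% and 0.486%). Late muscle differed from control in 79 higher and 3 lower genes (0.817% and 0.031%), or 65 and 4 rescaled (0.672% and 0.0414%). The control muscles were both legs of 2 rats and were fitted as 4 replicates, so that the p-values are too small. With the legs averaged per rat 686 genes in place of 805 were called between 3 DPI and control and 65 in place of 82 between late and control. Without the fourth control muscle 504 genes were called higher and 11 lower at 3 DPI (222 and 30 rescaled), and 36 and 7 in late muscle (44 and 7 rescaled), while the comparison of 3 DPI with late muscle gave 234 and 6. Of the 232 genes called higher at 3 DPI against late muscle 175 were also called higher against control, or 152 without the fourth control muscle, a comparison that uses the same muscles at 3 DPI. Fbxo32 in control muscle ranged from 72.4 to 145 with a median of 124 TPM, S100a9 from 0.4 to 3.93 with a median of 3.04, Ifit3 from 0.9 to 2.24 with a median of 1.41 and Tfrc from 37.1 to 110.4 with a median of 97, each with its lowest value in the fourth control muscle. Some matrix and macrophage genes were higher in late muscle than in control: Col1a1 ranged from 11.4 to 21.5 with a median of 18.9 TPM in control muscle and was 1.64 higher in late muscle (adjusted p = 0.00387), and Lyz2 from 8.6 to 22.9 with a median of 15.8 (1.11, adjusted p = 0.00307). The lowest control value of both was again in the fourth muscle, and without it the differences were 1.46 (limma adjusted p = 0.0265) and 0.86 (adjusted p = 0.0279), the second below the fold.

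Rats labelled Run gave a comparison with no muscle in common. Their rat numbers also moved with the day, low at 3 DPI and high at 14 DPI, so this comparison shares that limit. In 4 uninjured muscles of running rats at 3 DPI and 4 at 14 DPI, 473 genes were called higher at 3 DPI and 38 lower (4.9% and 0.394% of 9654), or 1.4% and 1.41% rescaled. Of the 232 higher genes 228 were tested there, 225 differed in the same direction (98.7%, where 87.2% of all tested genes were higher) and those called in both made up 59.5% of the first list and 29.2% of the 473. On rescaled values 47 of 48 higher and 44 of 45 lower genes had the same direction, where 51.7% and 48.2% of all tested genes did, and 30 and 41 were called. Fbxo32 was at 263 to 551 with a median of 488 TPM at 3 DPI in running rats and 59.3 to 128.6 at 14 DPI, a difference of 2.27 (adjusted p = 2.70e-05). S100a9 was at 31.6 to 84.1 with a median of 61.2 TPM, with no low muscle, against 3 to 5.0 at 14 DPI (3.63 (adjusted p = 1.18e-05)). Blood cell markers were also higher there: 2 of 8 were called as deposited and 0 rescaled, their median was 1.33 where that of all genes was 0.38, and they summed to 5315 to 53575 TPM at 3 DPI and 3623 to 8788 at 14 DPI. Their part in the S100a9 values was not tested. Tmem100 differed by 3.60 (adjusted p = 3.87e-06), Mt2A by 3.54 (adjusted p = 3.30e-05), Pvalb by -1.20 (adjusted p = 2.41e-05) and Tfrc by -1.62 (adjusted p = 2.51e-04). Oxidative phosphorylation had 28 of 37 genes lower by the adjusted p alone as deposited, where 4.06% of all genes were, and all 37 rescaled (15.8%).

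No interferon or collagen gene was called in running rats, of 23 and 24 tested, with medians of 0.37 and 0.56 where that of all genes was 0.38. By the adjusted p alone 6 interferon and 8 collagen genes were higher as deposited, and 0 and 1 rescaled, with 1 collagen gene lower rescaled. Slfn4, which is not on the interferon list, was called higher in running rats as deposited (1.18, limma adjusted p = 0.00593), with the groups apart, and was at 0.84 rescaled (adjusted p = 0.0519). Ifit3 was at 1.39 to 6.24 with a median of 4.06 TPM at 3 DPI and 0.97 to 4.77 with a median of 1.3 at 14 DPI, with 1 high muscle at 14 DPI (0.72 (adjusted p = 0.0905)). Isg15 differed by 0.64 (adjusted p = 0.171), Irf7 by 0.53 (adjusted p = 0.11) and Mx1 by 0.37 (adjusted p = 0.327). The running-by-time interaction of limma, which tests whether the difference between 3 and 14 DPI depends on running, called no gene of either list, so a different response of interferon genes in running rats was not shown. Its median over the interferon genes was -0.54 against -0.06 over all genes, with Irf7 at -1.30 (adjusted p = 0.268) and Isg15 at -1.25 (adjusted p = 0.399). Of 16 genes of denervation and fibre stress 11 were called higher in running rats as deposited, where 4.9% of all genes were, and 7 higher and 1 lower rescaled. The interaction called none of these 16 as deposited and 2 rescaled, both larger in running rats. Myog was at 33.4 to 87.1 with a median of 68.4 TPM at 3 DPI against 10 to 17.9 at 14 DPI (2.22 (adjusted p = 4.12e-05)).

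Over all 9787 genes tested for the interaction 3 were called, all with the difference shifted upward in running rats (0.0307%). They were named because they passed it. Tuba4a, a muscle alpha-tubulin, was at 462, 595, 413 and 370.2 TPM at 3 DPI in rats that did not run, below the late range of 649 to 792, and at 719.5 to 1097 with a median of 932 in running rats, above their 491 to 588 at 14 DPI (interaction 1.43, adjusted p = 0.00376). Cryab (alpha-B crystallin), a small heat shock protein of muscle, was at 1543, 1447, 1502 and 1263 TPM without running and at 2335 to 4442 with a median of 2727 with it, against 659.8 to 865 and 662 to 929 late (1.09, adjusted p = 0.0387). Musk, the kinase that assembles the neuromuscular synapse, was at 0.89, 0.66, 0.61 and 1.11 TPM without running and at 2.5 to 5.4 with a median of 3.09 with it, against 0.33 to 0.84 and 0.43 to 0.63 (1.29, adjusted p = 0.017). Musk had a mean above 1 TPM in running muscle at 3 DPI alone and entered the test through it, so its call is no support. On rescaled values Tuba4a and Cryab missed the threshold (adjusted p = 0.0561 and 0.094), and 5 genes were called larger and 1 smaller in running rats (0.0511% and 0.0102%).

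**Figure D4:**
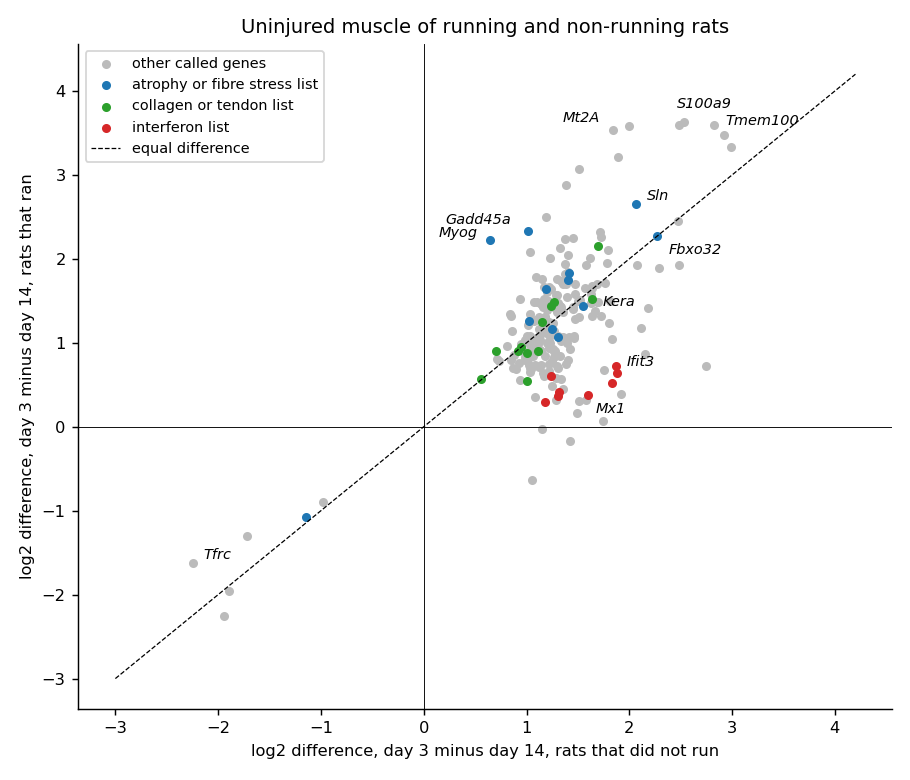
Log2 difference between 3 and 14 DPI for the genes called against late muscle in rats that did not run (x) and the same difference in rats that ran (y), with colours for lists and a dashed line of equal difference. Nearly all points lie in the same quadrants on both axes, and the interferon genes (red) lie below the line.

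Repair of the other leg was compared next. For the interaction of arm and time 1 of 9826 rows passed the threshold in limma (0.0102%), the microRNA precursor Mir10a. It was at 2.23 and 3 TPM in the graft muscles at 3 DPI and listed at 0 in the other 10 muscles, so that it entered the test only through those graft muscles and had no spread in the other groups, and nothing is read from it. In the same test 71 genes were at an unadjusted p under 0.05 (0.723%). With 2 muscles per arm and day, no effect of the arm was detected.

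Set beside the injured TA of the same 4 rats, the uninjured muscle at 3 DPI was higher in some of its leading genes and lower in others. These values are TPM as deposited and were not rescaled between the legs. The share of a gene therefore also moves with what else the tissue holds, and its part was not tested. Fbxo32 in injured muscle was at 94.2, 249, 141.4 and 241 TPM, in the same order of rats, and lower than in the uninjured leg in 3 of 4 rats. Pnpla7 was at 43.2, 50.2, 38.3 and 63 TPM and Tmem100 at 44.7, 56.1, 36.2 and 52.1, each lower in the injured leg in 4 of 4 rats. Other genes were far higher in the injured leg: Mt2A was at 1389, 821, 1479.7 and 1000.1 TPM, Sln at 3068, 3793, 2611 and 4191, Mustn1 at 2267, 2118, 1442 and 2077 and Lyz2 at 4550.3, 3350.3, 5404 and 4856. S100a9 was at 94, 37.3, 229 and 57.4 TPM in the injured leg, below the uninjured leg in 1 of 4 rats, and Tfrc at 21.8, 32.2, 24.6 and 17.3, near the level of the uninjured leg. With 4 pairs an exact two-sided permutation test cannot go below p = 0.125, and these values are given as a description.

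**Figure D5:**
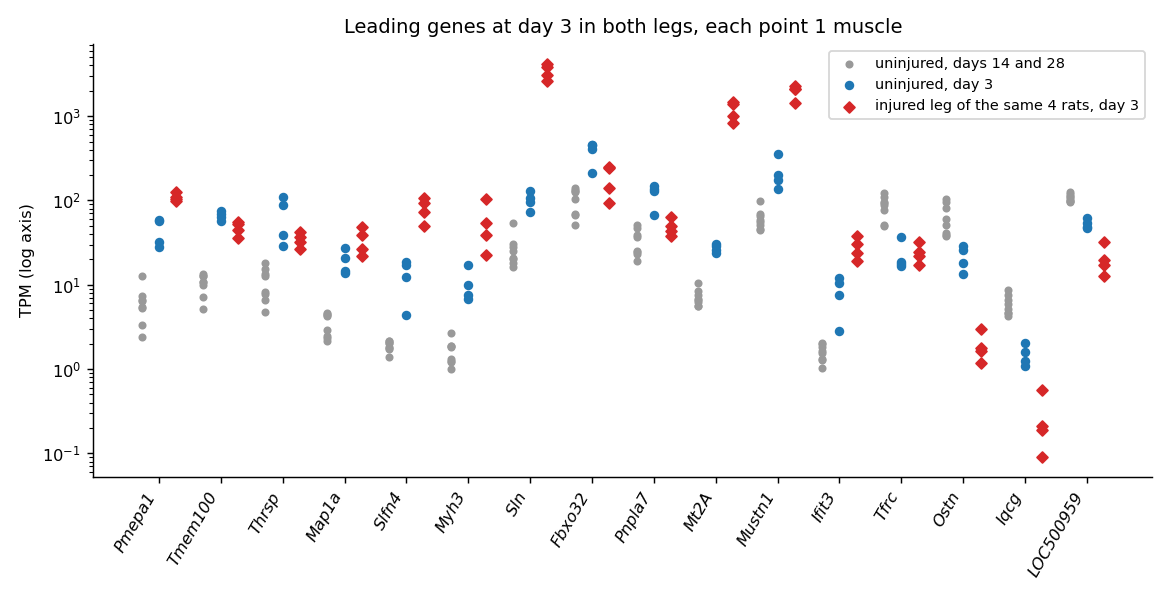
TPM on a log axis for the 16 genes named by the rule, each point 1 muscle: uninjured muscle late (grey), uninjured muscle at 3 DPI (blue) and the injured muscle of the same 4 rats at 3 DPI (red). In TPM as deposited, not rescaled between the legs, Tmem100 and Pnpla7 are higher in the uninjured leg of every rat and Fbxo32 and Thrsp in 3 of 4. Sln, Mt2A and Mustn1 are far higher in the injured leg.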

How the data were processed

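Total RNA of whole TA muscle was sequenced as paired reads from a Truseq mRNA library. Per the labels, the submitters' processing notes name kallisto and DESeq, and the table the authors deposited holds TPM values per gene symbol and library, which keep no read depth. In the table used here symbols end, in alphabetical order, at Tubb3, and later ones were not analysed. Counting error therefore could not be given, and precision is limited by the number of muscles. Libraries under 7000 symbols above 1 TPM were left out, as were 9 libraries with conflicting labels.

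Log2(TPM + 1) of 26 uninjured muscles of rats that did not run was fitted with limma 3.58.1 in R 4.3.3 (group means, moderated with an intensity trend, 21 residual degrees of freedom) over 9669 genes above 1 TPM in mean in at least one group, with Benjamini-Hochberg adjusted p. Rescaled values were TPM divided by median-of-ratios size factors. Running rats were fitted apart (12 muscles), and interactions in fits over both. The code was tested on simulated data. The genes named in the text were the 12 with the largest called difference per direction without overlap between the groups, and up to 5 called members of each list with the largest differences. Others were chosen after their values were seen (Alas1, Chrna1, Gadd45a, Hbb, Ifi44, Oas1a, genes named for an interaction, genes called on rescaled values alone). Members and gene lists were chosen with earlier results of these data known. Replicates were separate rats, apart from the control muscles (both legs of 2 rats, averaged per rat as an alternative), but nothing says that their RNA was handled apart, so that p-values measure the spread between these muscles. Some items are not reported here. Promoter windows came from RefSeq (GRCr8).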

Additional observations from a re-analysis of the deposited data

Results flagged for a closer look

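Each gene with values in the text was examined for a muscle standing apart from the rest of its group by Dixon's test, in 312 groups of 4 or 8 muscles, of which chance alone would pick about 1 in 20. It picked 26.

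At 3 DPI the second non-repaired muscle was apart in S100a8, at 2.17 TPM where the next was 37.59, in S100a9, at 6.06 where the next was 59.16, in Tfrc, at 37.19 where the next was 18.5, and in Ankrd2, at 45.81 where the next was 25.46. The first graft muscle was apart in Trim63, at 448.45 TPM where the next was 332.04.

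Among the 8 late muscles 1 muscle stood above the others in Sln (53.79 TPM), Mustn1 (98.6), Actc1 (269.91), Ankrd2 (27.5), Ddit4 (37.48), Hmox1 (5.48), Cxcl13 (1.14) and Hbb (7401.62), and 1 below in Fcer1g (6.24).

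In running rats at 14 DPI 1 muscle stood above the other 3 in Ifit3 (4.77 TPM, next 1.35), Isg15 (10.85, next 2.97), Mx1 (3.48, next 0.78), Cxcl13 (3.9, next 0.26), Mt1 (12.11), Sln (108.32), Cryab (928.51) and Pvalb (26644), and 1 below in Pgam2 (7276.99). At 3 DPI in running rats 1 muscle was high in Kera (67.38 TPM, next 13.57), 1 in Chrna1 (24.78, next 11.57) and 1 low in C1qb (18.6, next 38.68).

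The difference between 3 and 14 DPI depended on running for Cryab (interaction 1.093, limma adjusted p = 0.0387), Musk (1.293, adjusted p = 0.017, above 1 TPM in mean in running muscle at 3 DPI alone) and Tuba4a (1.431, adjusted p = 0.00376). Tuba4a was lower at 3 DPI without running and higher with it. On rescaled values Cryab and Tuba4a missed the threshold in limma (adjusted p = 0.094 and 0.0561).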

How the results depend on the processing

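The 232 genes called higher and 6 lower at 3 DPI became 48 and 45 with size factors, 498 and 13 with a pseudocount of 0.1, 364 and 18 against 14 DPI alone, 41 and 0 with all libraries kept (which adds 2 low libraries at 7 DPI to the estimate of spread), and 6358 and 250 by the adjusted p alone, or 1355 and 1600 with size factors as well (an alternative chosen after seeing the data). Leaving out 1 muscle gave 148 to 419 higher and 4 to 10 lower. Under the other settings (no filter, no intensity trend, arm as covariate, 12 muscles only, injured muscles in the fit, 28 DPI alone, without ribosomal and small RNA rows) the counts stayed within 1.5 times. With size factors the 805 genes called at 3 DPI against control became 283 (686 with control legs averaged per rat), the 3 running-by-time genes 6, and the 4.9% and 0.394% of tested genes called higher and lower in running rats 1.4% and 1.41%, or 7.91% and 0.642% with a pseudocount of 0.1. Leaving out 1 control muscle gave 515 to 1080 genes at 3 DPI against control and 43 to 109 in place of 82 for late muscle against control, both lowest without the fourth control muscle. Leaving out 1 running muscle gave 4.22% to 6.31% and 0.3% to 0.538%. Apart from the changes by construction, the cause was not tested. No gene called on either scale changed direction with size factors, nor did the 16 genes named by the rule under any alternative, while 3773 of the 9669 tested genes did, Myh4 among them. Of the 16 genes named by the rule 15 were called in each of the 12 fits without 1 muscle, and 7 under every alternative. Of 60 called genes named in the text 43 were called in each of those fits, 17 were lost in at least 1, and none changed direction. No paired analysis was possible because no rat gave uninjured muscle at both an early and a late day. TPM keep no read depth, so low genes carry an unknown counting error.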

Other observations

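A library of an uninjured muscle, with labels that name 2 different days, was put in no group. The other library of that muscle, labelled 7 DPI, had 3301 symbols above 1 TPM and fell below the minimum. The library in no group had 9475 symbols above 1 TPM, Fbxo32 at 58.27 TPM, Tmem100 at 15.62, Pmepa1 at 14.01, S100a9 at 15.23, Ifit3 at 5.41, Mt2A at 10.52 and Tfrc at 196.65.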
